A study of Mus musculus with 8 samples.

Results

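A set of acute phase response genes, 10 of the 32285 genes listed for each library, was followed through single-nucleus RNA sequencing of 8 male mouse livers. They are Saa1, Saa2, Saa3, Lcn2, Orm1, Orm2, Lrg1, Hp, Steap4 and Socs3, and they were found by symbol, each of which named 1 gene. They were chosen by name with their UMI levels in these same libraries already known, so their levels and group differences are descriptions and support no test. All 10 passed the filter on low counts. Every mouse was a DIAMOND mouse, a cross of 129A1/SvIm and C57BL/6J that develops fatty liver disease and liver tumours on a fat- and sugar-rich Western diet, and every mouse received that diet for at least 36 weeks. The WD tumour group (n = 3 mice) stayed on the diet for 48 weeks and developed hepatocellular carcinoma (HCC, a cancer that arises from hepatocytes). The RD tumour group (n = 2 mice) was returned to standard chow after 36 weeks and had HCC, and the RD no tumour group (n = 3 mice) had the same reversal and no detected HCC. No mouse without the Western diet is among the samples. The labels give an end at 48 weeks of age, which disagrees with 48 weeks of diet begun at 2 months of age, and they do not say whether the piece taken held tumour.

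The acute phase response is the change in liver protein production that follows infection, injury or inflammation. Interleukin 6, through its receptor subunit gp130 and the transcription factor STAT3, and interleukin 1 and TNF, through NF-kB, act on hepatocytes together with C/EBP factors. Hepatocytes then make more of the positive acute phase proteins, such as the serum amyloid A proteins and haptoglobin, and less of the negative ones, such as albumin. Socs3 is made in the same response and shuts down gp130 signalling.

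Levels are given as CPM, the UMIs of a gene per 1000000 UMIs of its library. A UMI is the tag that marks 1 captured RNA molecule, and the library total is over all barcodes of a library with at least 300 detected genes. Such totals ran from 17948627 to 34363108 UMIs, over 6048 to 20000 barcodes per library with a median of 1120 to 2656 UMIs each. In sums over whole libraries, fewer cells of a type and less RNA per cell cannot be told apart. RD tumour 1 stood apart: it had exactly 20000 barcodes, and its correlation with each other library over 19087 genes (log2 scale) was 0.786 to 0.876, while every other library had a partner at 0.962 or higher. Its marker sums differed too, with 3886 CPM for 12 hepatocyte markers and 3055 for the neutrophil markers. The other libraries had 6714 to 15726 and 34.5 to 929, respectively. The livers expressed all 12 hepatocyte markers. Pairs of libraries shared 8 to 65 barcodes, at most 0.676% of the smaller library.

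The 3 serum amyloid genes lie together on chromosome 7 (mouse build GRCm38, GENCODE M21): Saa3 at chr7:46711998-46715700 and Saa1 at chr7:46740497-46742980 on the minus strand, and Saa2 at chr7:46751790-46754313 on the plus strand. Orm1 (chr4:63344560-63348163) and Orm2 (chr4:63362449-63365878) are neighbours on the plus strand of chromosome 4. Lcn2 is at chr2:32384633-32388252, Lrg1 at chr17:56119678-56122001, Hp at chr8:109575128-109579172 and Socs3 at chr11:117966079-117970047, all on the minus strand, and Steap4 is at chr5:7960457-7982213 on the plus strand. All 10 are protein-coding. The longest coding transcripts of Saa1 and Saa2 are 94.4% identical, with a longest identical run of 76 bases, and those of Orm1 and Orm2 are 91.0% identical, with a run of 141 bases. Reads within such runs match both genes, so the counts of each gene and their split within each pair are uncertain.

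Promoters were listed by RefSeq (GRCm38.p6) for 8 of the 10 genes, all but Orm1 and Hp. The 250 bases before the RefSeq start site of 5 of them follow. Saa1 and Saa2 were chosen as near copies with like patterns over the mice. Lcn2 and Orm2 were among the 4 members with the widest spread within groups, and Steap4 followed another order of libraries. RefSeq and GENCODE start sites differ for some genes. Against the GENCODE spans above, the windows of Lcn2 and, not shown, Socs3 lie inside their genes, and those of Saa2 and Steap4 reach into theirs. Capitals mark matches, on either strand, to 3 patterns: TTCNNNGAA (STAT type), TTNNGNAA (C/EBP type) and an NF-kB type (GGG and TCC with any 4 bases between). Each sequence is written 5′ to 3′ on the strand of its gene.
Saa1, chr7:46742981-46743230, minus strand: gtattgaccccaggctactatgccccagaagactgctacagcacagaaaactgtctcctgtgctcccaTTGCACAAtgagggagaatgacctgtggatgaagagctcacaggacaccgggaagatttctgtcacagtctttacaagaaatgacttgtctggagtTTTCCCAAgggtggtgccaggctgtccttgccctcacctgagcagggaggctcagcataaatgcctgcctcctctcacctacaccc
Saa2, chr7:46751583-46751832, plus strand: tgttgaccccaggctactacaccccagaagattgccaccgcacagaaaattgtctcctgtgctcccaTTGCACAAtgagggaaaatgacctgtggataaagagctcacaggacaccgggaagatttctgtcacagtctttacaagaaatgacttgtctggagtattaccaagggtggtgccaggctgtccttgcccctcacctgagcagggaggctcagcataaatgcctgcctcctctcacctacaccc
Lcn2, chr2:32387740-32387989, minus strand: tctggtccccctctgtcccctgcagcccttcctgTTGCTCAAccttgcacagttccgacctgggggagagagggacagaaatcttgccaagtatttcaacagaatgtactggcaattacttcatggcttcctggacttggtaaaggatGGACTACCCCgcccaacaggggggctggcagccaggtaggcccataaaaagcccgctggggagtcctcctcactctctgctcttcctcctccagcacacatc
Orm2, chr4:63362199-63362448, plus strand: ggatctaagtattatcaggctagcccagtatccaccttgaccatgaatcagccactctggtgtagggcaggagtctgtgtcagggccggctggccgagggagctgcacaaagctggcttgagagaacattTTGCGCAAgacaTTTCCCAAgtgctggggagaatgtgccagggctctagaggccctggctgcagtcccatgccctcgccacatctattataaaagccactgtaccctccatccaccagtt
Steap4, chr5:7960222-7960471, plus strand: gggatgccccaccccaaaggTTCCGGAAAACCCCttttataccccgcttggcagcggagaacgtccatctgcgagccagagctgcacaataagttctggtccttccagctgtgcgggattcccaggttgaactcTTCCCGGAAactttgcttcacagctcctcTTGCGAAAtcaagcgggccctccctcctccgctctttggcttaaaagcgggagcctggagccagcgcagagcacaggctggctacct
The Saa1 and Saa2 windows were identical at 238 of 249 aligned bases. Both held TTGCACAA, a C/EBP-type match, and Saa1 held a second such match, TTTCCCAA. Lcn2 held 1 C/EBP-type match and 1 NF-kB-type match, GGACTACCCC. Orm2 held 2 C/EBP-type matches, TTGCGCAA and TTTCCCAA. Steap4 held matches to all 3 patterns, among them the STAT-type TTCCCGGAA, and its NF-kB-type match overlaps a C/EBP-type match. Of the 8 listed promoters, 6 held the C/EBP-type pattern, against 36.9% of 32841 promoters of the same length. The NF-kB-type pattern was in 3 of 8, against 16.5%, and the STAT-type pattern in 2 of 8 (Steap4 and Socs3), against 7.02%. A match describes letters only and is not a site.

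The serum amyloid A genes encode small apolipoproteins that the liver releases onto high-density lipoprotein. Saa1 stood at 110, 773 and 74.8 CPM in WD tumour 1, 2 and 3, at 841 and 327 in RD tumour 1 and 2, and at 10965, 333 and 964 in RD no tumour 1, 2 and 3. Saa2 followed with 50.7, 389 and 41.4, then 523 and 191, then 10705, 115 and 539 in the same order of libraries. One mouse of the tumour-free group, RD no tumour 1, was thus far above all others for both genes, while the other 2 mice of its group lay within or close to the range of the tumour-bearing mice. Saa1 RNA exceeded albumin RNA in that liver, with 2.53 Saa1 UMIs per Alb UMI, against 0.00611 to 0.107 in the other 7. The ratio of Saa2 to Saa1 UMIs was 0.976 there and 0.344 to 0.622 elsewhere. Saa3, the form also made outside the liver, had 5.74, 51.5 and 6.71 CPM in the WD tumour mice, 121 and 9.07 in the RD tumour mice, and 210, 8.16 and 4.94 in the RD no tumour mice. Its highest mouse in each group was therefore WD tumour 2, RD tumour 1 and RD no tumour 1, and the groups overlapped for all 3 amyloid genes.

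Orosomucoids, the products of Orm1 and Orm2, are abundant plasma glycoproteins that bind drugs and lipids. Orm1 was found at 317, 1350 and 233 CPM in WD tumour 1, 2 and 3, at 1986 and 703 in RD tumour 1 and 2, and at 6464, 782 and 751 in RD no tumour 1, 2 and 3. The near copy Orm2 had 13.0, 454 and 8.17, then 849 and 65.1, then 2166, 35.7 and 62.6. WD tumour 2, RD tumour 1 and RD no tumour 1 were again the highest of their groups. Orm2 made up a larger part of the pair in these mice: Orm2 UMIs per Orm1 UMI were 0.337, 0.427 and 0.335 in them and 0.0350 to 0.0926 in the other 5. Hp encodes haptoglobin, which binds free haemoglobin in plasma. Its levels in the same order were 1645, 3038 and 1807 CPM, then 3912 and 2160, then 10780.3, 2378 and 3123. Lrg1, a secreted leucine-rich glycoprotein, had 192, 540 and 148, then 754 and 274, then 1117, 317 and 522. Both genes kept the order of highest mice and covered a narrower range than the amyloid genes.

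Lipocalin 2, the product of Lcn2, withholds iron from bacteria by binding their siderophores, and it is also stored in neutrophil granules. Lcn2 was at 67.5, 819 and 78.4 CPM in WD tumour 1, 2 and 3, at 2037 and 69.3 in RD tumour 1 and 2, and at 1759, 107 and 296 in RD no tumour 1, 2 and 3. Here RD tumour 1, and not RD no tumour 1, was the highest library, and the 2 RD tumour mice were 29.4-fold apart. The summed neutrophil markers stood at 108, 220 and 43.9 CPM, then at 3055 and 126, then at 929, 56.4 and 34.5. RD tumour 1 and RD no tumour 1 were the highest for these markers as well, and within each group the mouse highest for the markers was also the highest for Lcn2. Their part in the Lcn2 levels was not tested over whole libraries.

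Socs3 encodes the feedback inhibitor of gp130 signalling. It was sparse, with 5.13, 42.3 and 7.28 CPM in WD tumour 1, 2 and 3, 49.4 and 17.9 in RD tumour 1 and 2, and 48.7, 4.55 and 7.73 in RD no tumour 1, 2 and 3. The highest mouse of each group was the same as for Saa3 and the orosomucoids. Steap4, a membrane reductase of iron and copper that is induced in inflammation, was measured at 82.2, 207 and 96.9 CPM, then at 65.9 and 77.2, then at 206, 54.9 and 61.8. It was the exception to the shared order, because RD tumour 1 was the lower mouse of its group. Steap4 was also the only member for which 2 groups were apart: each WD tumour mouse was above both RD tumour mice. Of all genes, 12.2% were apart in that direction between these groups, and 21.3% in either. The other pairs of groups overlapped for all 10 members, where 10.6% (WD tumour and RD no tumour) and 15.6% (both reversed groups) of all genes were apart.

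**Figure D1:**
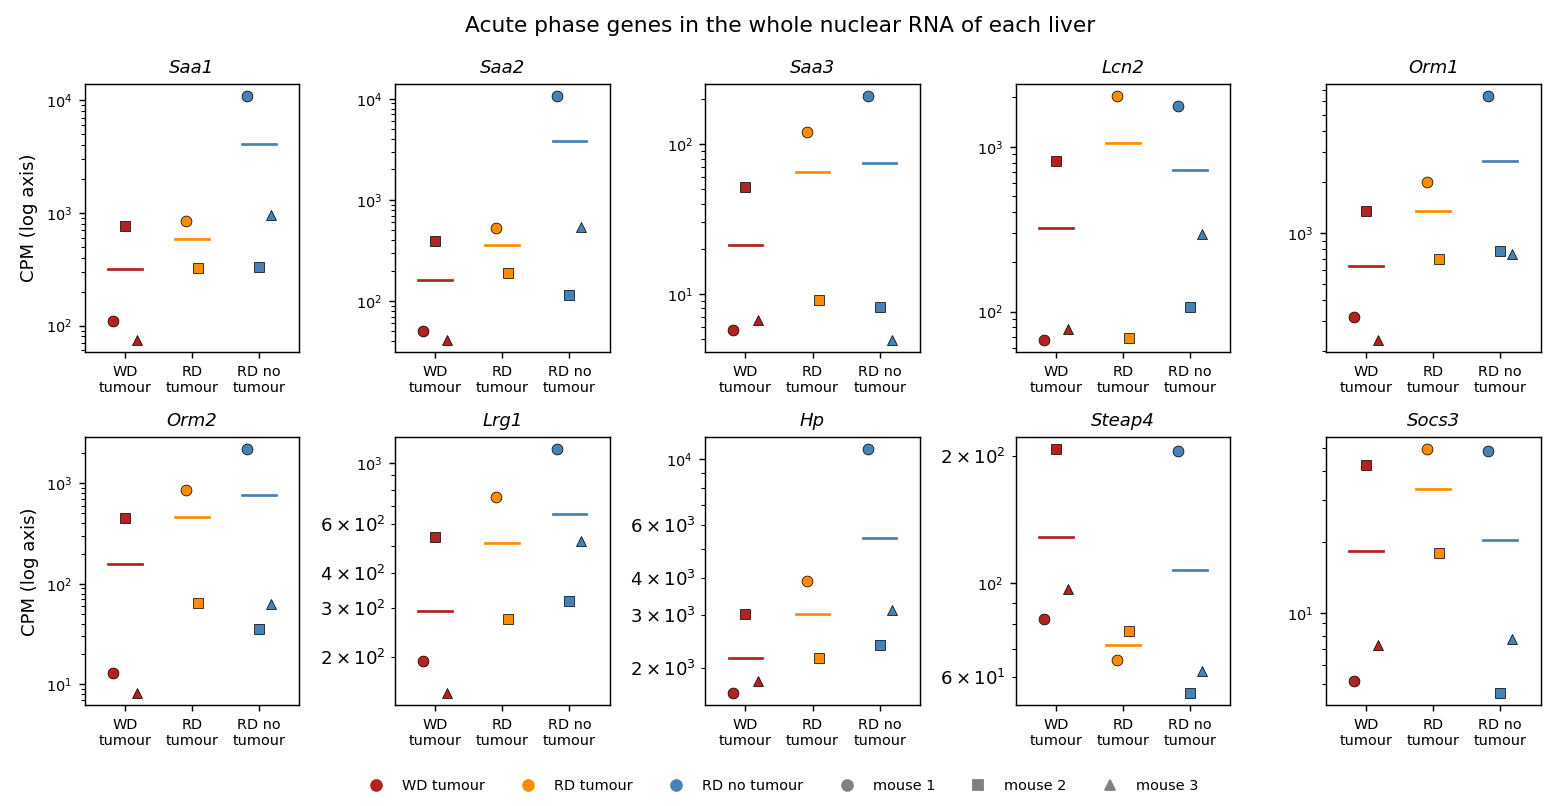
CPM (log axis) of the 10 genes in whole libraries, with 1 symbol per mouse, colour for the group and a horizontal bar at the group mean. In each panel but that of Steap4, WD tumour 2, RD tumour 1 and RD no tumour 1 were the highest of their groups, and Saa1 in RD no tumour 1 reached 10965.

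Mice of the same group differed more in each of these genes than in the median gene, least so in Steap4, Hp and Lrg1. The pooled SD within groups of log2 CPM had a median of 1.78 over the 10 genes and of 0.565 over the 19087 genes tested. It was widest for Orm2 (3.05), Saa3 (2.43), Saa2 (2.39) and Lcn2 (2.37), then Saa1 (2.00), Socs3 (1.56), Orm1 (1.44), Lrg1 (0.947), Hp (0.798) and Steap4 (0.744). Of all genes, 99.6% had a smaller SD than Orm2, 91.9% than Orm1, 77.8% than Lrg1, 69.1% than Hp and 65.3% than Steap4. The highest library exceeded the lowest by 265-fold for Orm2, 259-fold for Saa2, 147-fold for Saa1 and 3.78-fold for Steap4. Without RD no tumour 1 the median SD of the members was 1.37, against 0.564 over all genes, and 8 of 10 members remained above the latter; leaving out any other library left all 10 above it. In whole libraries the share of a gene's variation that lay within groups was near the background, with a median of 73.7% for the members and 70.5% for all genes.

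WD tumour 2 was the highest of the 3 WD tumour mice for 10 of 10 members, against 42.3% of all genes. RD tumour 1 was the higher of its pair for 9 of 10, against 48.1%, and RD no tumour 1 was the highest of its group for 10 of 10, against 38.1%. Added together, the 10 genes took 0.249%, 0.766% and 0.250% of all UMIs in WD tumour 1, 2 and 3. The share was 1.11% and 0.389% in RD tumour 1 and 2, and 4.44%, 0.413% and 0.633% in RD no tumour 1, 2 and 3. Other values moved with these. Hepatocyte marker sums were 6714 CPM in WD tumour 2, 3886 in RD tumour 1 and 8624 in RD no tumour 1, against 10489 to 15726 in the other 5. Macrophage marker sums were 1997, 2139 and 2226 in those 3 libraries, against 751 to 1336. Erythroid markers stood at 30302 in WD tumour 2, against 1191 to 7628 in the rest. The part of these cell types in the member levels of whole libraries was not tested.

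**Figure D2:**
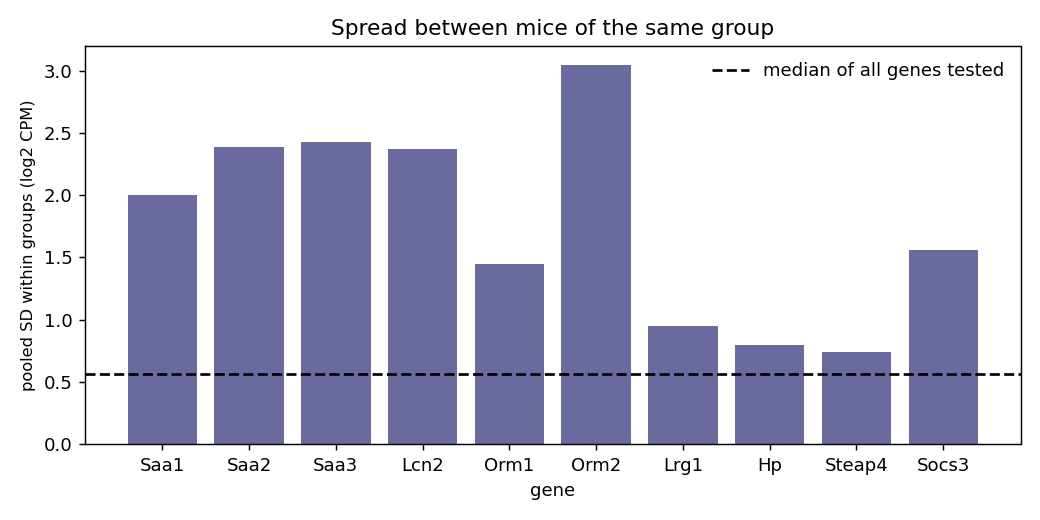
Pooled SD within groups of log2 CPM for each gene (bars), with the median over all 19087 genes tested as a dashed line at 0.565. All 10 bars are above the line, from 0.744 for Steap4 to 3.05 for Orm2.

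Continued Western diet with tumour against reversal without tumour differs in both diet and outcome. Means of the members were mostly lower in WD tumour, by amounts that the spread within groups left uncertain. Saa1 averaged 319 ± 393 CPM (SD, n = 3) in the WD tumour mice against 4087 ± 5965 (SD, n = 3) in the RD no tumour mice, a log2 fold change of -3.69 (SE 1.46). Saa2 had a log2 fold change of -4.56 (SE 1.73), Orm1 of -2.08 (SE 1.05), Hp of -1.34 (SE 0.65) and Steap4 of 0.24 (SE 0.54). Of 10 members, 9 were below 0, where 51% of all genes were, and the members' median was -1.57, against -0.01 over all genes. RD no tumour 1 decided this direction. Without it the median was 0.06, 5 of 10 were below 0, Saa1 was at -1.17 and Saa2 at -1.19, and Saa3 (1.58), Orm2 (1.53) and Socs3 (1.43) were above 0. Without WD tumour 2 the median was -3.24 and all 10 were below 0.

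Within the reversed mice, RD tumour against RD no tumour contrasts livers by tumour under the same diet. The log2 fold change was -2.77 (SE 1.65) for Saa1, -3.36 (SE 1.94) for Saa2, 0.60 (SE 1.62) for Lcn2 and 0.75 (SE 1.16) for Socs3. In all, 8 of 10 members were below 0, against 49.8% of all genes, with a median of -0.63. Lcn2 averaged 1053 ± 1392 CPM (SD, n = 2) in RD tumour and 721 ± 904 (SD, n = 3) in RD no tumour. Leaving out RD no tumour 1 gave a median of 0.46 with 1 of 10 below 0, leaving out RD tumour 1 gave -2.52 with 10 of 10 below 0, and leaving out RD tumour 2 gave -0.09 with 5 of 10 below 0.

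Among tumour-bearing livers, WD tumour against RD tumour contrasts the diets. The members' median was -1.03, with 9 of 10 below 0 against 50.8% of all genes, and Steap4 was the member above 0, at 0.85 (SE 0.61). Lcn2 was at -1.79 (SE 1.62) and Saa1 at -0.92 (SE 1.45). The median was 0.11, with 2 of 10 below 0, without RD tumour 1, and -2.53, with 9 of 10, without WD tumour 2. Steap4 was then at 0.80 and 0.37. The 3 comparisons share their groups, so their values are not independent of one another.

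No member passed in any of the 3 comparisons by edgeR's quasi-likelihood test at an adjusted p under 0.05 (Benjamini-Hochberg), where 0 of 19087 genes were called, which is 0% in each. An unadjusted p under 0.05 was reached by 524 genes (2.75%), 1279 genes (6.7%) and 1443 genes (7.56%), in the order given above. Saa1 and Saa2 were among the 524, and no member was among the others. DESeq2 called 36, 67 and 109 genes, with no member among them. Leaving out RD tumour 2 gave 4569 and 4438 calls against the other groups, again with no member, and leaving out RD tumour 1 gave 11 against RD no tumour. In simulated counts with the spread of these libraries, 67%, 54% and 53% of genes changed 16-fold were recovered in the 3 comparisons. Of those changed 4-fold, 9%, 5% and 2% were recovered. The changed genes were drawn from all genes tested, each with its own spread, so these are not rates for the members. The members spread more widely, with a median SD within groups of 1.78 against 0.565 over all genes.

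**Figure D3:**
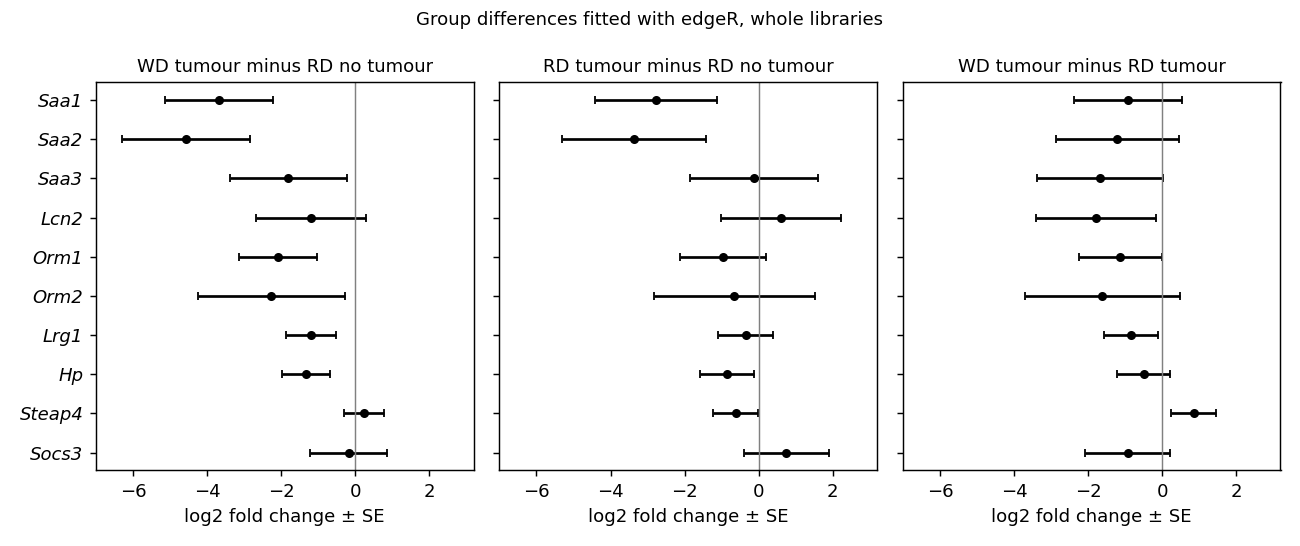
Log2 fold change of each gene in the 3 comparisons (points) with its standard error (bars), fitted by edgeR to whole libraries. Most points are left of 0, with the lowest at -4.56 for Saa2 in WD tumour minus RD no tumour, and no gene passed an adjusted p of 0.05.

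Related genes were read in 4 lists beside the members: other positive acute phase genes, negative ones, and the signalling genes of the interleukin 6 and of the interleukin 1, TNF and NF-kB pathways. None of the genes tested in these lists passed the test in any comparison, in either direction. Of 28 other positive acute phase genes, 22 were below 0 in WD tumour minus RD no tumour, with a median of -0.68, and 21 were below 0 in RD tumour minus RD no tumour, with a median of -0.65. In WD tumour minus RD tumour 16 of 28 were above 0, with a median of 0.25, where the members had -1.03. In nuclei called hepatocytes by marker genes (hepatocyte-gated) 23 of 28 were above 0 in that comparison, with a median of 0.57. The negative acute phase genes went the same way there, with 14 of 15 above 0 and a median of 0.69. Of all 15008 gene symbols tested, 7955 were above 0, with a median of 0.04. RD tumour 1 had 206 such nuclei. Relative to each gene's mean over the 8 mice, the median of the 27 such genes above 5 CPM was 0.99 in RD no tumour 1 (24 of 27 above their mean) and 0.31 in WD tumour 2 (18 of 27). It was -0.04 in RD tumour 1 (13 of 27), a library in which 9 of 10 members were above their mean. Saa4, the constitutive serum amyloid gene, had an order unlike that of its relatives, with 76.5 CPM in RD no tumour 1, 11.0 in RD tumour 1, 70.1 in WD tumour 2 and 57.7 to 223 elsewhere.

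The hepcidin genes, whose product limits iron release into blood, did not share the members' order. Hamp was at 793, 1.60 and 914 CPM in WD tumour 1, 2 and 3, at 1878 and 4273 in RD tumour 1 and 2, and at 807, 2418 and 2106 in RD no tumour 1, 2 and 3. WD tumour 2, highest of its group for every member, was thus by far the lowest library for Hamp, and it was also the library with the highest erythroid marker sum. Hamp2 was at 40.4 and 67.9 in WD tumour 1 and 3 and at 3.75 or less in the other 6 libraries. Its log2 fold change was 5.88 (SE 1.86) in WD tumour minus RD no tumour, which did not pass (adjusted p = 1, edgeR). Cd14, a co-receptor for bacterial lipopolysaccharide, had 342 CPM in RD tumour 1, 80.5 in RD no tumour 1, 39.0 in WD tumour 2 and 4.01 to 15.7 elsewhere.

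In whole libraries, most negative acute phase genes were below their means in the same mice. Over 15 such genes the median relative to the mean of the 8 mice was -0.63 in RD no tumour 1, -0.89 in RD tumour 1 and -0.39 in WD tumour 2. It was -0.03 in RD tumour 2 and 0.19 to 0.94 in the other 4. Alb, which encodes albumin, was at 4326 CPM in RD no tumour 1 and at 7874 to 13702 elsewhere, and WD tumour 2 held the highest of these values. Mup3, a major urinary protein gene, was lowest in RD tumour 1 (1.28 CPM) and highest in RD no tumour 2 (4115). Between groups, 8, 13 and 2 of 15 genes were below 0 in the 3 comparisons in the order above, with medians of -0.18, -0.70 and 0.39. The largest log2 fold changes, in the same order, were -2.64 (SE 1.46) for Serpina1e, -2.04 (SE 1.20) for Cyp2c29 and 1.86 (SE 1.05) for Serpina6. Hepatocyte marker sums were low in the same 3 libraries, as given above. Ttr and Hnf4a are both negative acute phase genes and hepatocyte markers here, so these sums and the hepatocyte gate are not independent of the list. In WD tumour 2, 5 of the 15 genes were above their mean. In hepatocyte-gated nuclei the sign turned in that mouse, with a median of 0.26 and 9 of 15 above their mean. RD no tumour 1 was at -0.43 there (7 of 15 above), and 1 of 15 was above its mean in RD tumour 1. Serpina1e in such nuclei was at 713 CPM in WD tumour 2, the highest of its group, and at 26.1 in WD tumour 1, the lowest.

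Medians of the signalling lists covered a narrower range over the mice than those of the members. In the interleukin 6 and STAT3 list, 23 of 26 genes were tested, and Il11, Lif and Il22 were too low. Its median relative to the mean of the 8 mice (20 genes above 5 CPM) was lowest in RD no tumour 2, at -0.38, and highest in RD no tumour 1, at 0.38. Fos and Junb, immediate early transcription factor genes, were both highest in RD tumour 1. Fos was at 64.7 CPM there, at 20.3 in WD tumour 2 and at 13.8 in RD no tumour 1, and Junb was at 111 and 122 in the latter 2 mice. The other 5 libraries had 2.06 to 5.44 for Fos and 27.0 to 85.3 for Junb. In the interleukin 1, TNF and NF-kB list of 26 genes (25 above 5 CPM), the median ran from -0.31 in WD tumour 1 to 0.34 in RD tumour 1. Nfkbia, the NF-kB inhibitor that NF-kB itself induces, was at 243 in RD tumour 1, 94.8 in RD no tumour 1, 80.2 in WD tumour 2 and 59.4 to 75.8 in the rest. Cebpd, a C/EBP factor gene of the acute phase, had 88.9 in RD no tumour 1 and 36.4 to 69.9 elsewhere, with 53.2 in WD tumour 2. The genes of the interleukin 1 receptor, Il1r1 and Il1rap, were lowest in RD tumour 1, at 237 and 64.9, and highest in RD no tumour 3, at 1275 and 918.

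**Figure D4:**
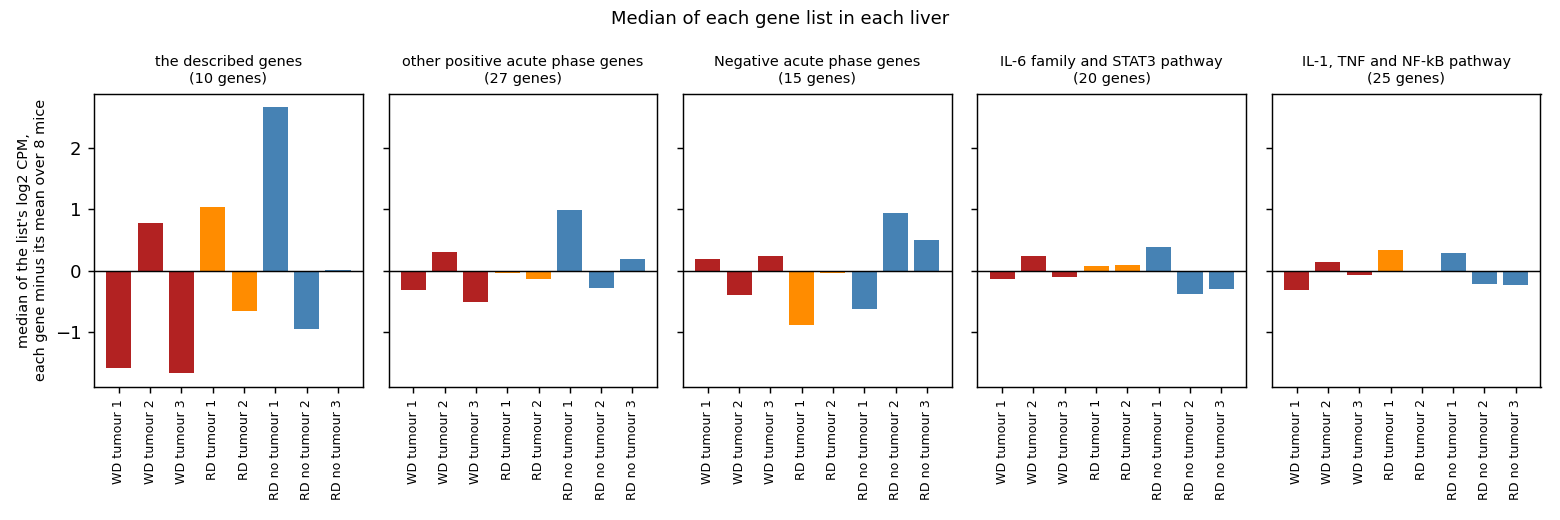
Median over each gene list of log2 CPM after subtracting each gene's mean over the 8 mice, with 1 bar per mouse coloured by group. The described genes reach 2.67 in RD no tumour 1, the other positive acute phase genes 0.99, and the negative ones -0.63.

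The genes closest in pattern were sought among 12507 genes with a mean of at least 5 CPM, by the root mean square difference of centred log2 values over the 8 libraries. This difference also grows where genes share an order of libraries but change by unlike amounts. For Saa1 they were Saa2 (0.40), Orm1 (0.83), 9530077C05Rik (1.14), Bmper (1.18) and Gm37468 (1.19). Lrg1, Orm2 and Lcn2 ranked 10, 12 and 13, Hp 18, Saa3 38, Socs3 85 and Steap4 1002. For Hp the closest were Fgb (0.25) and Fgg (0.28), which encode fibrinogen chains, with Prg4 (0.27), Ambp (0.29) and Fetub (0.34). Fetub is on the list of negative acute phase genes. Among the members Lrg1 ranked 12, Orm1 922, Steap4 1454 and Socs3 8314. Saa1, Lcn2, Saa3, Saa2 and Orm2 ranked 11034, 11275, 11428, 11848 and 12260. Fgb was at 7354 CPM in RD no tumour 1, 3328 in WD tumour 2, 2254 in RD tumour 1 and 1391 to 2550 elsewhere. For Lcn2 the 5 closest were no acute phase genes but Anln (0.63), Ncapg (0.75), Prc1 (0.76), Prune2 (0.76) and Mki67 (0.76). Of the members Saa3 ranked 15, Orm1 77, Socs3 120, Orm2 149, Lrg1 200 and Saa1 347. Hp, Saa2 and Steap4 ranked 558, 595 and 2481. Mki67, a gene of dividing cells, was at 112 CPM in RD tumour 1. WD tumour 2 had 59.8, RD no tumour 1 had 28.2, and the other 5 had 1.95 to 5.56.

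To see which nuclei held the RNA, nuclei were gated by marker genes within each library. Nuclei with at least 4 of 12 hepatocyte markers and at most 1 marker of any other class were called hepatocyte-gated. Each other class needed at least 3 markers and 2 more than any other non-hepatocyte class. Hepatocyte markers did not count against these classes, so nuclei mixed with hepatocyte RNA could enter them. In endothelial-gated nuclei, hepatocyte and endothelial markers summed to 12505 and 6447 CPM in WD tumour 1, and to 5054 and 9003 in WD tumour 2. In hepatocyte-gated nuclei Saa1 was at 127, 1113 and 83.6 CPM in WD tumour 1, 2 and 3, at 698 and 394 in RD tumour 1 and 2, and at 10531, 289 and 1013 in RD no tumour 1, 2 and 3. The highest mouse of each group was again WD tumour 2, RD tumour 1 and RD no tumour 1 for all 10 members, with Steap4 now also higher in RD tumour 1 (91.2, from 26 UMIs) than in RD tumour 2 (71.5). With TMM factors Hp in the RD tumour pair took the other order, at 11.21 and 11.26 on the log2 scale. The gate held 1347 to 5470 nuclei in 7 libraries but 206 in RD tumour 1. The median SD within groups was 1.83 for the members and 0.577 over 15011 genes. The share of variation that lay within groups had a median of 82.7% for the members and 62.4% for all genes here, further apart than in whole libraries. Neutrophil markers summed to 898 CPM in the gated nuclei of RD tumour 1, so the gate did not free that library of them. Each member but Steap4 was lower in these gated nuclei than in the whole library of RD tumour 1. Hp was at 3051 against 3912 CPM and Orm1 at 1536 against 1986. The hepatocyte markers, which set the gate, summed to 7530 against 3886. The gated values of RD tumour 1 may therefore not be those of hepatocytes alone.

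Between groups, hepatocyte-gated nuclei gave 0 calls by edgeR among 15011 genes in each comparison (0%), with 970 (6.46%), 1408 (9.38%) and 916 (6.1%) genes at an unadjusted p under 0.05 and Saa2 as the only member among them, in WD tumour minus RD no tumour. DESeq2 called 67, 275 and 39 genes, and no member. Members below 0 numbered 9 of 10 (51.8% of all genes), 9 of 10 (55.4%) and 6 of 10 (47%). Saa1 was at -3.15 (SE 1.44), -3.16 (SE 1.71) and 0.01 (SE 1.49), and Steap4 at 0.30 (SE 0.69), -0.76 (SE 0.82) and 1.06 (SE 0.83). Without RD no tumour 1 the members' median was 0.62 in WD tumour minus RD no tumour and 0.28 in RD tumour minus RD no tumour, with 3 and 4 of 10 below 0. In WD tumour minus RD no tumour the median of -1.01 became -3.00 (10 of 10 below 0) without WD tumour 2, and 5 of 10 were below 0 with a stricter gate (no UMI of another class's markers), which left out RD tumour 1 because 3 nuclei passed. In RD tumour minus RD no tumour the median of -1.11 became -1.82 (10 of 10) without RD tumour 1 and -0.73 (7 of 10) without RD tumour 2. The direction in WD tumour minus RD tumour rested on single libraries. Its median of -0.22 became 0.40 without RD tumour 1, 0.24 without WD tumour 1 and 1.19 with the stricter gate, each with 0 of 10 below 0. It was 0.26 (2 of 10) without WD tumour 3, -0.48 (8 of 10) without RD tumour 2 and -1.97 (9 of 10) without WD tumour 2. No member had WD tumour and RD tumour mice apart in CPM here. On the log2 scale with TMM factors 1 did, Steap4, at 6.19, 8.14 and 6.41 in WD tumour against 6.15 and 6.12 in RD tumour, where 14.4% of all genes were apart in that direction.

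Hepatocyte RNA was present in the nuclei of every class, so a member found in another class need not have been made there. After each nucleus was thinned to 500 UMIs, Saa1 was seen in 96.4% of hepatocyte-gated and 100% of T/NK-gated nuclei of RD no tumour 1, with median depths of 2902 and 1200 UMIs. The shares were 6.83% and 6.17% in WD tumour 3 (901 and 1512 UMIs), 49.8% and 55.4% in RD no tumour 3, and 56.7% and 50.9% in WD tumour 2. Before thinning they were 100% and 100%, 14.5% and 14.8%, 90.8% and 88.0%, and 87.5% and 90.6%. T and NK cells should lack the gene, so its presence there is read as background. Each member's ratio between a class and hepatocyte-gated nuclei was therefore divided by the same ratio for Alb. The result would be 1 if a gene's RNA were shared among nuclei exactly as that of Alb. This reference did not hold for every gene. In T/NK-gated nuclei the medians of the members ran from 0.501 for Steap4 to 1.68 for Saa3, with Apoa1 at 0.885. A departure from 1 thus need not mean that the class made the RNA. Apoa1, another hepatocyte gene, gave medians of 0.959 in macrophage-gated, 0.966 in endothelial-gated and 0.915 in stellate/fibroblast-gated nuclei.

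Saa1 gave medians of 0.990, 0.998 and 1.03 in these 3 classes over 8 libraries, Hp gave 0.999, 1.01 and 1.03, and Lcn2 gave 0.996, 0.993 and 1.12. Orm1, Orm2, Lrg1 and Saa2 likewise had medians between 0.931 and 1.07. Single libraries departed further: Saa1 ranged from 0.899 to 1.39 in macrophage-gated, 0.944 to 1.35 in endothelial-gated and 0.876 to 1.42 in stellate/fibroblast-gated nuclei. Saa2 reached 1.68 in macrophage-gated and Orm2 1.57 in stellate/fibroblast-gated nuclei. Steap4 and Socs3 had medians further from 1. Steap4 was 2.73 times the albumin ratio in stellate/fibroblast-gated nuclei (median of 8 libraries) and above 1.5 in 7 of 8, with RD tumour 1 at 0.982 from 17 UMIs. Steap4 in that class had 161, 420 and 181 CPM in WD tumour 1, 2 and 3, 78.9 and 202 in RD tumour 1 and 2, and 509, 205 and 160 in RD no tumour 1, 2 and 3. WD tumour 2 and RD no tumour 1 were thus the highest in this class as well. In macrophage-gated nuclei Steap4 was below the albumin ratio in 8 of 8 libraries, with a median of 0.719. The low ratio was not particular to that class. Medians were 0.889 in endothelial-gated, 0.662 in B-gated, 0.601 in neutrophil-gated, 0.539 in cholangiocyte-gated and 0.501 in T/NK-gated nuclei.

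Socs3 was above the albumin ratio in macrophage-gated nuclei in 8 of 8 libraries (median 1.74, range 1.13 to 2.72) and in endothelial-gated nuclei in 7 of 8 (median 1.43). In macrophage-gated nuclei it stood at 7.56, 58.8 and 9.70 CPM in the WD tumour mice, 46.5 and 20.7 in the RD tumour mice, and 59.9, 5.06 and 7.41 in the RD no tumour mice, from 11 to 410 UMIs. Saa3 in macrophage-gated nuclei had 303 CPM in RD no tumour 1 against 128 in hepatocyte-gated ones, which is 3.02 times the albumin ratio, and 63.3 against 59.3 in WD tumour 2, which is 1.70 times. In the other 6 libraries it was between 0.457 and 1.39 times, from 5 to 419 UMIs. The excess was not limited to macrophage-gated nuclei: in endothelial-gated ones Saa3 had a median of 1.22, against 1.17 in macrophage-gated ones, and it was above 1.5 in 3 of 8 libraries, up to 3.34 in WD tumour 1 from 31 UMIs. T/NK-gated nuclei, read as background for Saa1, had a median of 1.68 and were above 1.5 in 4 of 7 libraries, from 1 to 56 UMIs in those 4. Orm2 likewise had a median of 1.56 in T/NK-gated nuclei. The class that made Saa3 cannot be told from these ratios. Lcn2 in neutrophil-gated nuclei was measured in 3 libraries. It had 583 CPM in RD tumour 2, from 31 UMIs in 42 nuclei, against 83.7 in hepatocyte-gated nuclei, or 5.31 times the albumin ratio. In RD tumour 1 (4073 neutrophil-gated nuclei) and RD no tumour 1 (630) the levels were 2840 and 2239, or 1.12 and 1.22 times. Hepatocyte-gated nuclei of these mice had 1589 and 1802. They also held neutrophil markers at 898 and 197 CPM, against 60.2 in RD tumour 2. How far neutrophil RNA in the hepatocyte-gated nuclei lowered the ratios was not tested.

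**Figure D5:**
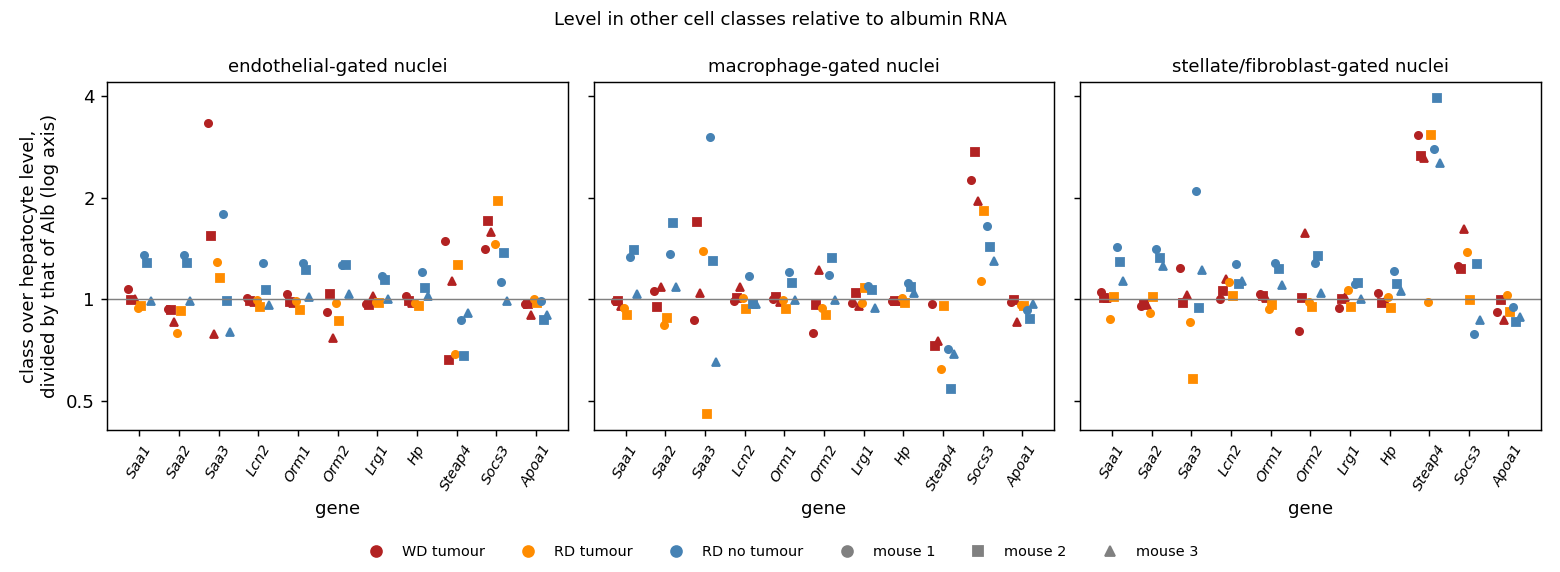
Level of each gene in endothelial-, macrophage- and stellate/fibroblast-gated nuclei over that in hepatocyte-gated nuclei, divided by the same ratio for Alb (log axis), with 1 symbol per mouse and Apoa1 for comparison. Steap4 is near 2.73 in stellate/fibroblast-gated nuclei and Socs3 near 1.74 in macrophage-gated ones, while Saa1, Hp and Orm1 lie close to 1.

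Hepatocytes near the central vein and near the portal vein carry different enzymes, and the members were compared between nuclei gated by 8 markers of each zone in the 7 libraries that held both. Lrg1 was higher in pericentral nuclei in 7 of 7 libraries (median ratio 1.21, range 1.01 to 1.74) and Saa1 in 6 of 7 (median 1.18, range 0.880 to 1.89). Alb itself was higher in 4 of 7, with a median of 1.14. Lcn2 was higher in 3 of 7, with a median of 0.986. Medians of the other 7 members ran from 1.04 for Orm1 to 1.37 for Orm2, with Socs3 at 1.27 and Saa3 at 1.25. Single libraries reached 2.46 for Saa2 (WD tumour 1, 119 pericentral and 42 periportal UMIs) and 2.09 for Saa3 (WD tumour 2, 59 and 6). Ratios of Socs3 also rested on few UMIs, such as 8 and 8 in WD tumour 1 and 40 and 5 in WD tumour 2. Depth differed between the zones: in the 3 WD tumour mice pericentral nuclei had medians of 940 to 1025 UMIs and periportal ones 3742 to 4242. In the other 4 libraries the medians were 1924.5 to 4599.5 and 2295 to 4928. The part of depth in the zone ratios was not tested.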

How the data were processed

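Nuclear RNA of snap-frozen livers was sequenced with Chromium 3′ chemistry, version 3.1, per the labels' protocols. The authors deposited raw UMI counts per gene and barcode. Cell Ranger 7.0.0 and build mm10 are named per the submitters' processing notes, and the rules for calling barcodes and for intronic reads are not given in the sources used here. Of 32285 gene IDs, 32158 were in GENCODE M21.

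The members, gene lists and markers were chosen with earlier results of these data known, and the thresholds of the gates were set with the files in hand. Barcodes with at least 300 genes were kept and their counts were summed per library (the mouse), and per marker-gated class with at least 20 nuclei. No doublet caller was run. Nuclei with markers of 2 classes could pass the gates, because hepatocyte markers did not exclude a nucleus from another class. Between non-hepatocyte classes a margin of 2 markers was needed. The median mitochondrial share per barcode was 7.91% in WD tumour 1 and 7.51% in WD tumour 3, and 1.30% to 3.28% elsewhere. Sums were fitted with edgeR 4.0.16 (TMM, filterByExpr, quasi-likelihood test, Benjamini-Hochberg threshold 0.05) over all 8 libraries and 3 groups, after a test on simulated data. Each library is 1 mouse. List genes to be named were those called, at most 4 per list, or else the 2 with the largest absolute log2 fold change. The latter needed a mean of at least 5 CPM. Of the genes so picked, Socs2, Myc and Myd88 are not described, and Alb was named without being picked. Per-library values of other list genes were added after they were seen where stated. Patterns closest to Saa1, Lcn2 and Hp were ranked over log2 values. Alternatives were DESeq2 1.42.0 as test or for size factors, no low-count filter, the replicate number as a block, only 2 groups in the fit, no mitochondrial genes, other barcode filters, a stricter gate and each library left out. Promoters came from RefSeq and were searched with Python 3.11.15.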

Additional observations from a re-analysis of the deposited data

How the results depend on the processing

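Every alternative left all 10 members short of an adjusted p of 0.05. The lowest adjusted p of a member was 0.107 over 480 values from alternatives in whole libraries (DESeq2) and 0.239 over 480 in hepatocyte-gated nuclei (stricter gate), against 0.612 and 0.593 as reported. The sign of a member's fold change differed from the reported one in 35 and 64 of these values, 28 and 41 of them with a library left out. The cause was not tested. Counts of called genes, all 0 as reported, moved more. DESeq2 called 36, 67 and 109 genes in whole libraries (WD tumour minus RD no tumour, RD tumour minus RD no tumour, WD tumour minus RD tumour) and 67, 275 and 39 in hepatocyte-gated nuclei. The stricter gate, on 7 libraries because RD tumour 1 kept 3 nuclei, gave 95, 5 and 10 in hepatocyte-gated nuclei, and no low-count filter gave 1 in WD tumour minus RD no tumour there. With each library left out in turn, calls in whole libraries ranged from 0 to 0, from 0 to 4569 and from 0 to 4438. In hepatocyte-gated nuclei they ranged from 0 to 2, from 0 to 2158 and from 0 to 1335. The highest values came without RD tumour 2, where the lone RD tumour 1 is assumed to vary like the other groups, and without RD tumour 1 the counts for RD tumour minus RD no tumour were 11 and 3. The 2 calls in WD tumour minus RD no tumour came without RD no tumour 1. The labels do not say whether replicate numbers in the titles mark pairs. Deviations of same-numbered libraries from their group means correlated between -0.50 and 0.43, above 0.1 in 3 of 7 pairs. Those with different numbers correlated between -0.51 and 0.64, above 0.1 in 8 of 14. Such deviations cancel out within each small group, so these correlations cannot decide whether the numbers mark pairs. With the replicate number as a block, 0 genes were called in all 6 fits, and 6 and 9 of 30 member values changed sign. The median SD within groups, recomputed with each library left out (chosen after seeing the data), ran from 1.37 to 1.96 for the members. Depth limits Saa3 and Socs3 most: some class values rest on 5 to 20 UMIs.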

Other observations

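Il6, which encodes the cytokine that starts the response, was singled out after its values were seen. It had 5, 35 and 9 UMIs in WD tumour 1, 2 and 3, 38 and 6 in RD tumour 1 and 2, and 93, 5 and 9 in RD no tumour 1, 2 and 3, or 0.221 to 3.19 CPM. The highest mouse of each group was the one highest for Saa3, Orm2 and Socs3, and the gene did not pass in any comparison. Il1b, chosen in the same way, was at 5.96, 48.7 and 6.46 CPM, then at 5.30 and 25.5, then at 45.2, 8.08 and 6.09 in the same order. It differs from the members in RD tumour, where mouse 2 was the higher one. Hpx, which encodes the haem carrier hemopexin, had 7697 CPM in RD no tumour 1, 2839 in RD tumour 1, 2448 in WD tumour 2 and 765 to 1589 in the other 5 libraries.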
